A study of Mus musculus with 6 samples.

Results

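The miR-130 and miR-301 family was described in mouse 3T3-L1 cells on day 8 of adipocyte differentiation, with and without interleukin-6 (IL-6). Its members were taken by name, as every mouse miRNA on the array whose name is miR-130 or miR-301, with any letter, and a 3p arm. The rule found 4 of 1247 mouse miRNAs: mmu-miR-130a-3p, mmu-miR-130b-3p, mmu-miR-301a-3p and mmu-miR-301b-3p, written without the mouse prefix from here on. Of these, miR-130a-3p and miR-301a-3p were well above background on all 6 arrays and entered the test, whereas miR-130b-3p and miR-301b-3p were above background on none.

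The 3T3-L1 line is made of mouse embryo fibroblasts that become fat cells under a hormone mix. Cells of both groups were held for 48 h after confluence. They then received IBMX (0.5 mmol/l), dexamethasone (1 µmol/l), insulin (2 µmol/l) and rosiglitazone (2 µmol/l) for 3 days, insulin for a further 3 days, and serum medium for the last 2 days. Rosiglitazone is itself an activator of PPARγ, and the control cells received it too. The IL-6 group (2 arrays) had 1 ng/ml of the cytokine from induction onward, and the control group (4 arrays) had none. Medium was renewed every 24 h in both groups. Each array was hybridised with Cy3-labelled total RNA (100 ng, RNA integrity number 9.5 to 10.0). The labels do not state whether each array stands for its own culture. The p-values therefore measure only how far these samples spread, and that spread may be technical.

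PPARγ, encoded by Pparg, is the nuclear receptor that drives fat cell differentiation. A miRNA guides the Argonaute protein to mRNAs, mostly through bases 2 to 8 at its 5′ end, the seed, and lowers their stability or translation. miRNAs of the miR-130 and miR-301 family are known repressors of Pparg mRNA in preadipocytes, and IL-6 is an inflammatory cytokine that fat tissue also makes. The series asked which miRNAs differ when IL-6 is present during differentiation, and the family bears on that question through its known target. Pparg mRNA itself was not measured here.

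The mature sequences of the family are shown because they define it. They are taken from RefSeq (GRCm38.p6), 5′ to 3′, with the seed in capitals; 3 of the 4 members matched an entry, and miR-301b-3p is named only.
miR-130a-3p: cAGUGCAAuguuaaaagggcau
miR-130b-3p: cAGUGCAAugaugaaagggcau
miR-301a-3p: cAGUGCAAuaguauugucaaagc

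All 3 sequences carry the seed AGUGCAA. Over their whole length, seed included, miR-130a-3p and miR-130b-3p were identical at 20 of 22 bases and first differed at base 11. miR-130a-3p and miR-301a-3p were identical at 12 of the 22 bases compared from the 5′ end and first differed at base 10. The difference between miR-130a-3p and miR-301a-3p thus lies in the 3′ part of the molecule.

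The longest array probe for each member is shown next, since the probes decide which member a signal belongs to. They are DNA, 5′ to 3′, as the scanner files give them, with capitals at the bases where the a form and the b form differ.
miR-130a-3p: atgccctttTaAcattgca
miR-130b-3p: atgccctttCaTcattgc
miR-301a-3p: gctttgacaatacTattgcac
miR-301b-3p: gctttgacaatacCattgca

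The miR-130a-3p and miR-130b-3p probes differed at 2 of 18 bases, and the miR-301a-3p and miR-301b-3p probes at 1 of 20 bases. The probes of miR-130b-3p paired with miR-130a-3p with 2 mismatches, and the probes of miR-301b-3p paired with miR-301a-3p with 1 mismatch.

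The 4 hairpins come from 3 places in the genome (GRCm38.p6, gene bounds from RefSeq, so exon and intron are not given). Mir130a lies at chr2:84741115-84741178 on the minus strand with no other gene around it, and its 3p arm is at chr2:84741116-84741137. Mir301, the source of miR-301a, lies at chr11:87113004-87113089 on the plus strand, within the bounds of Ska2, and its 3p arm is at chr11:87113054-87113076. Mir130b (chr16:17124061-17124142) and Mir301b (chr16:17124400-17124496) lie 258 bases apart on the minus strand, both within the bounds of 2610318N02Rik. The 2 members measured here therefore come from separate chromosomes, and the 2 members not above background come from 1 cluster.

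Some facts of the whole series touch these values. All arrays were on 1 slide with 1 scan time. The controls lay in slide row 1 and the IL-6 arrays in row 2, so row and group cannot be told apart, whereas columns 3 and 4 each held 1 array of either group. The 75th percentile used to scale an array ran from 248.3 to 440 intensity units, lowest on control 3. The software's labelling spike-in metric was outside its own range on 6 of 6 arrays, and 268 to 313 miRNAs were detected per array. Array correlations were taken across the 299 tested miRNAs. Control 4 correlated more closely with IL-6 array 2 (Pearson r = 0.995) than with any other control array (r at most 0.992). Both lay in slide column 4, and the part of slide position in this likeness was not tested. Results are also given without control 4. That choice drops the control most like an IL-6 array, so larger group differences without it are partly built in. With limma and Benjamini-Hochberg adjustment, 1 of 299 miRNAs passed an adjusted p of 0.05 (0.334%), and 24 passed without control 4. At an unadjusted p under 0.05 there were 68 (22.7%), against 42 without control 1, 42 without IL-6 array 1 and 101 without control 4. The 7 miRNAs listed as markers of adipogenic cells were all well above background on all arrays, among them miR-143-3p, miR-378a-3p and miR-148a-3p (the last also a seed relative of the family), and none of the listed muscle, blood, neural or liver miRNAs on the array was.

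miR-130a-3p did not differ detectably between IL-6 and control cells. Its scaled intensity, the array signal after each array was brought to a common 75th percentile, was 1061, 1066, 1253 and 1019 in controls 1 to 4. In the IL-6 samples 1 and 2 it was 1063 and 1109. Both IL-6 arrays lay inside the control range, above control 4 and below control 3. The mean was 1100 ± 104 (SD, n = 4) in control and 1086 ± 32.8 (SD, n = 2) in IL-6 cells. The log2 difference was -0.01 (limma, SE 0.098, 95% interval -0.25 to 0.23, adjusted p = 0.963). On the linear scale the interval covers a change from -16.1% to 17.0%, and these arrays cannot tell a change within those bounds from none. Within slide column 3 the difference was -0.24 and within column 4 it was 0.12, so its sign was not stable, and it also turned without control 3 (0.05). Without control 4 it was -0.05.

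miR-301a-3p was lower on both IL-6 arrays than on every control array, by a margin that did not pass the test. Its scaled intensity was 106.9, 105.7, 123.1 and 102.2 in controls 1 to 4. In IL-6 samples 1 and 2 it was 96.9 and 96.5. The groups did not overlap, and the gap from the lowest control to the higher IL-6 array was narrower than the range among the controls. The log2 means were 6.77 ± 0.12 (SD, n = 4) in control and 6.60 ± 0.0039 (SD, n = 2) in IL-6 cells, a difference of -0.17 (limma, SE 0.090, 95% interval -0.40 to 0.05, unadjusted p = 0.0994, adjusted p = 0.273). This is a value of -11.4% on the linear scale, with an interval from -24.0% to 3.18%. Such a separation was common: 65 of the 299 tested miRNAs (21.7%) lay below every control in both IL-6 samples, and 39 (13%) lay above. The difference was -0.35 within slide column 3 and -0.08 within column 4, and without control 3, the highest control, it was -0.12. Without control 4, the lowest, it was -0.21.

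**Figure D1:**
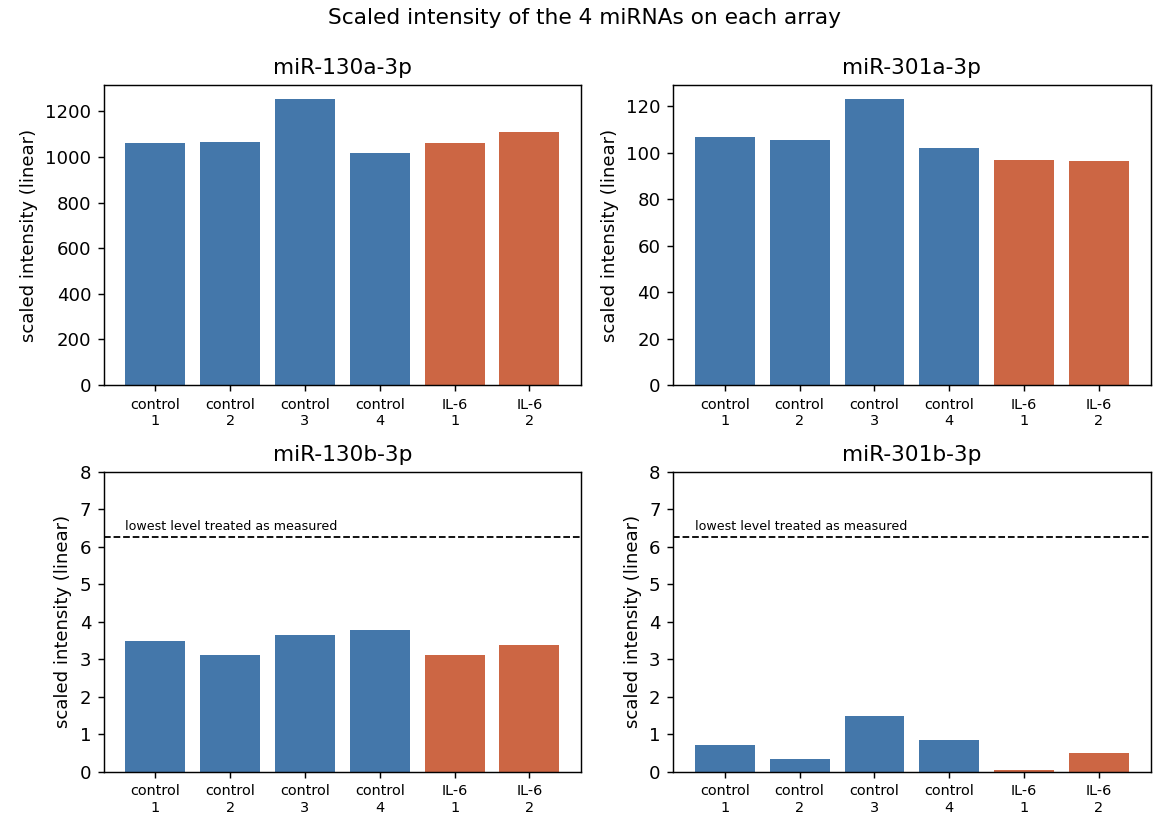
Scaled intensity (linear axis from 0, a separate scale for each miRNA) of the 4 family members on each of the 4 control arrays (blue) and 2 IL-6 arrays (orange); each bar is 1 array, and the dashed line marks the floor below which values were not treated as measured. The IL-6 bars of miR-130a-3p (1063 and 1109) lie within the control range, those of miR-301a-3p (96.9 and 96.5) lie below the lowest control (102.2), and every bar of miR-130b-3p and miR-301b-3p lies under the dashed line.

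Control 3 was the highest control for both measured members after scaling and the lowest before it. Unscaled, miR-130a-3p read 871 on control 3 against 979.4 to 1181 on the other controls, with 1309 and 1147 for IL-6. Unscaled, miR-301a-3p read 85.6 on control 3 against 98.2 to 117.1 on the other controls, with 119.4 and 99.8 for IL-6. Control 3 had the largest scale factor (1.439), and it was the highest control for 85 of the 264 miRNAs detected on all arrays, against 37 to 84 for the other controls. The part of the scaling in the spread of these 2 members was not tested further. The scanner software's own gene-level call marked both as detected on 6 of 6 arrays, with a stated error of 7.09% to 7.10% of the signal for miR-130a-3p and 7.56% to 7.69% for miR-301a-3p.

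The 2 probes of each measured member gave nearly the same profile over the arrays. For miR-130a-3p, the 18-base probe had a log2 difference of -0.04 and the 19-base probe 0.01, and both overlapped between groups. For miR-301a-3p, the 21-base probe (127.0 to 162.4 units) had a log2 difference of -0.18 and the 20-base probe (66.0 to 83.8 units) -0.17, each lower on both IL-6 arrays than on all controls. Each probe was printed in 20 spots, of which 15 to 20 were kept per array after uneven and outlier spots were dropped. All kept spots were well above background on every array, with a coefficient of variation among them between 4.52% and 8.47%. The probes of 1 miRNA read the same RNA and are not independent replicates.

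**Figure D2:**
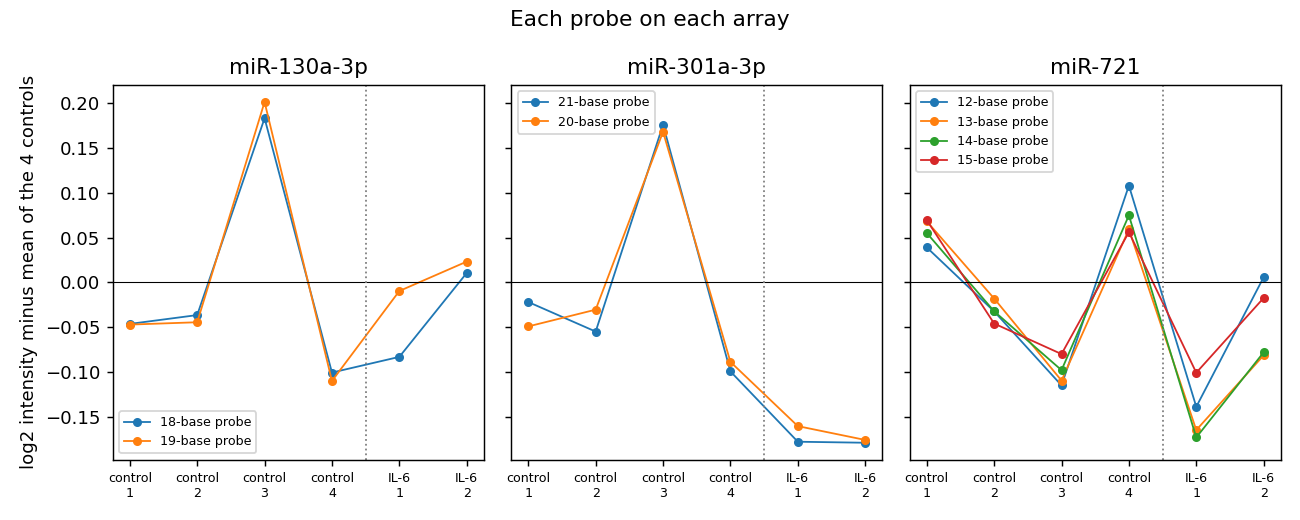
Log2 intensity of each probe of miR-130a-3p, miR-301a-3p and miR-721, relative to the mean of the 4 controls (vertical axis), on each array (horizontal axis); a line joins the points of 1 probe only to guide the eye, and the dotted line separates control from IL-6 arrays. Probes of 1 miRNA move together; for both miR-301a-3p probes the IL-6 points are the lowest, and for miR-130a-3p they are not.

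The paired behaviour of the 2 measured members was compared after their values had been seen. Within the 4 controls their levels rose and fell together, so the difference between their log2 intensities on the same array, which is free of any array-wide scaling, hardly varied. Relative to its control mean it was -0.02, 0.01, 0.02 and -0.01 in controls 1 to 4. In IL-6 samples 1 and 2 it was 0.13 and 0.19. Both IL-6 arrays stood above all controls, and the control SD was 0.016. The mean difference was 0.16 log2 (SD 0.048 among the IL-6 arrays), or 11.8% on the linear scale. Since the pair was chosen after its values were seen, this is a description, with no test. When miR-130a-3p was set in the same way against each of the other 298 tested miRNAs, both IL-6 arrays stood above all controls for 45 of them (15.1%) and below for 34 (11.4%). Separation of the groups was therefore not particular to the pair. The size of the gap against the control spread was not compared over the other pairs. Neither member passed the test on its own.

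**Figure D3:**
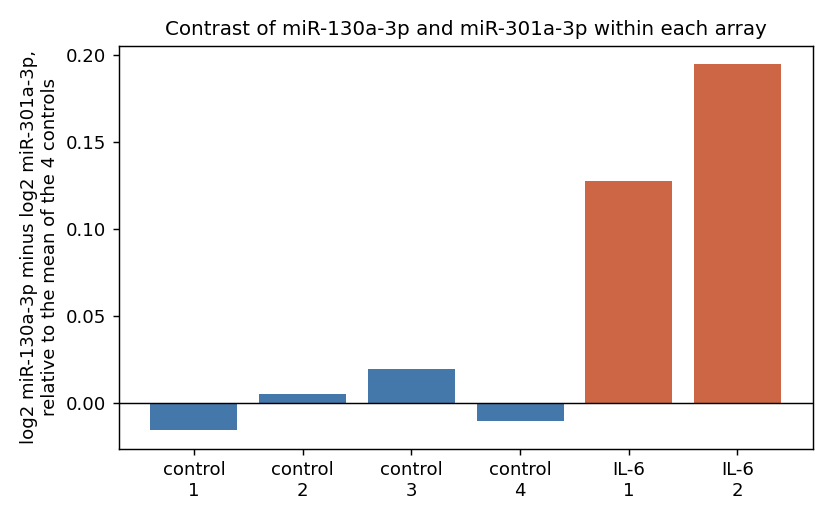
Log2 intensity of miR-130a-3p minus that of miR-301a-3p on the same array, relative to the mean of the 4 controls (vertical axis), for each control (blue) and IL-6 (orange) array. The control bars lie between -0.02 and 0.02 and the IL-6 bars at 0.13 and 0.19.

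miR-130b-3p was not well above background on any array. Its mean signal was 3.49, 3.11, 3.66 and 3.79 units in controls 1 to 4 and 3.10 and 3.37 units in the IL-6 samples, under the floor throughout. The arrays' 1000 negative control spots averaged between 0.694 and 2.24 units after the same scaling, with an SD among spots of 2.43 to 4.54. The miR-130b-3p signal was thus above the negative control mean on all 6 arrays, without being called above background. miR-301b-3p read 0.708, 0.335, 1.48 and 0.858 units in controls and 0.0437 and 0.513 units with IL-6. 0% of the kept spots of either miRNA were called above background on any array, and the scanner software called these miRNAs on 0 of 6 arrays. No fold is given for them, since neither group was well above background.

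The 5p arms, cut from the other strand of each hairpin and usually the less abundant product, were also on the array for all 4 hairpins. None of miR-130a-5p, miR-130b-5p, miR-301a-5p and miR-301b-5p was well above background on any array, so 0 of 4 were tested. Only the 3p arms of Mir130a and Mir301 were thus measured among the 8 products of the 4 hairpins.

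Other miRNAs with the same seed lie outside the naming rule and bear on how many miRNAs of this seed were measured. Of the 1247 array miRNAs, 1017 had a mature sequence in the RefSeq table, and 7 of these carry AGUGCAA at bases 2 to 8. Besides the 3 members shown above, these were miR-721, miR-130c, miR-6341 and miR-6389, the last pair found by sequence and not by name. miR-454-3p, which was also looked for by name, is not analysed here. Array miRNAs without a mature sequence there could not be searched for the seed. miR-721, encoded within the bounds of Cux1, is shown because it was the only other miRNA found with this seed that was above background.
miR-721: cAGUGCAAuuaaaagggggaa

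The scaled intensity of miR-721 was 162.4, 152.5, 145.5 and 164.1 in controls 1 to 4, against 141.1 and 151.3 in IL-6 samples 1 and 2. IL-6 array 1 lay below all controls and IL-6 array 2 inside their range. The difference was -0.09 (limma, SE 0.076, 95% interval -0.28 to 0.09, adjusted p = 0.500). Its 4 probes, of 12 to 15 bases, differed by -0.06 to -0.13, and each overlapped between groups. miR-130c, miR-6341 and miR-6389 were not well above background on any array. None of the 3 tested miRNAs found with this seed thus passed the test.

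By sequence, 7 further array miRNAs had a seed that shares 6 bases with AGUGCAA, shifted by 1 position. Of these, miR-291b-3p and miR-350-5p were not well above background on any array. The other 5 had been listed by name and are miR-148a-3p, miR-148b-3p and miR-152-3p, which read CAGUGCA at the seed, and miR-19a-3p and miR-19b-3p of the miR-17-92 cluster family, which read GUGCAAA. One sequence of each kind shows the shift.
miR-148a-3p: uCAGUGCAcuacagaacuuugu
miR-19b-3p: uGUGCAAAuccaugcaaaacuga

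These 5 were above background on all 6 arrays, and none separated the groups. Their log2 differences ran from -0.08 for miR-148b-3p to 0.01 for miR-19b-3p, 3 below 0 and 2 above, and the lowest adjusted p was 0.623 (limma). miR-148a-3p read 301.9, 336.5, 326.4 and 279.1 in controls against 329.1 and 282.0 with IL-6, and miR-19b-3p read 398.5 to 419.9 and 405.6 to 418.8. The standard error of the miR-19 pair (0.054 and 0.057) was smaller than that of miR-130a-3p and miR-301a-3p, with control SDs of 0.026 and 0.037. Over all 299 tested miRNAs the median difference was -0.02 and the median standard error 0.106.

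Further miRNAs known as repressors of Pparg were given as a list of 5, chosen by name with earlier results of these data known. Of these, 3 were tested, 2 were below 0 and 1 above, and 0 passed the adjusted threshold. miR-27a-3p, known to hold back adipocyte differentiation through Pparg, read 1209, 1175, 1329 and 1125 in controls against 1034 and 1119 with IL-6. Its difference was -0.17 (adjusted p = 0.276, limma). miR-27b-3p, its close relative, read 96.6, 90.7, 99.3 and 87.6 in controls against 78.1 and 81.2 with IL-6. Its difference was -0.23 (SE 0.074, 95% interval -0.41 to -0.05, unadjusted p = 0.0213, adjusted p = 0.151, limma). Both IL-6 arrays were below all controls for each of them. That held for 65 of all 299 tested miRNAs (21.7%), miR-301a-3p included. Below 0 were 165 of the 299 (55.2%), and 68 (22.7%) had an unadjusted p under 0.05 (limma). miR-128-3p had a difference of 0.10 (adjusted p = 0.559, limma), and miR-302a-3p and miR-540-3p were not well above background on any array.

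**Figure D4:**
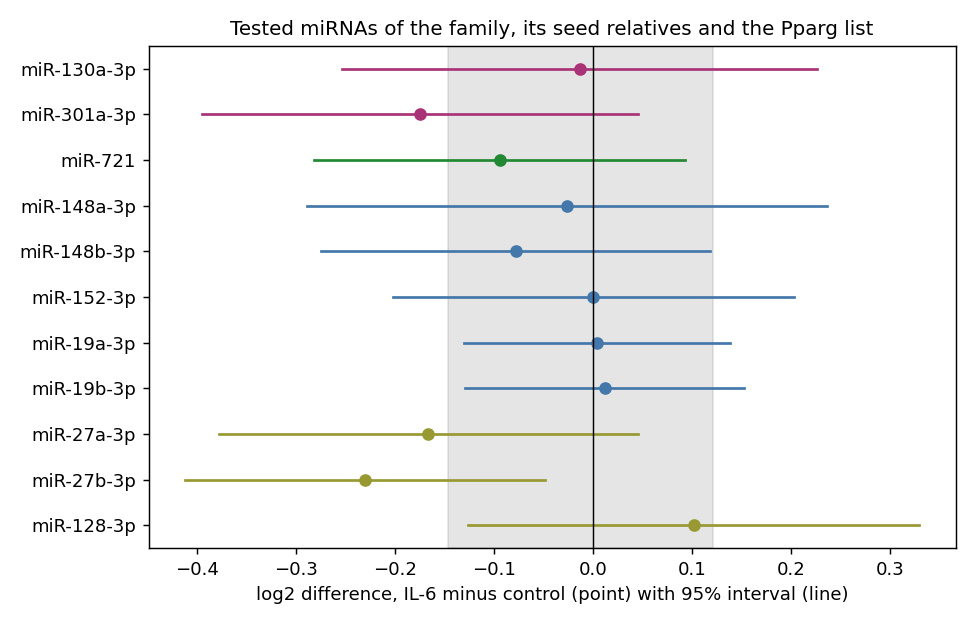
Log2 difference, IL-6 minus control, of each tested family member (purple), miR-721 with the same seed (green), the 5 miRNAs with a shifted seed (blue) and the tested miRNAs of the Pparg list (olive); points are limma estimates, lines are 95% intervals, and the grey band spans the quartiles of all 299 tested miRNAs (-0.15 to 0.12). Every interval except that of miR-27b-3p crosses 0, and the miR-301a-3p estimate lies just outside the band.

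The miRNAs with the profile most like each measured member were found by Pearson correlation of log2 intensity over the 6 arrays, which share a slide and a scaling step. For miR-130a-3p these were miR-361-5p (r = 0.981), miR-210-3p (r = 0.931) and miR-351-5p (r = 0.911). Their log2 differences between IL-6 and control were -0.0008, -0.01 and 0.08. For miR-301a-3p these were miR-652-3p (r = 0.988), miR-3963 (r = 0.988) and miR-324-5p (r = 0.986). Their log2 differences were -0.18, -0.19 and -0.11, with adjusted p-values of 0.249 to 0.413 (limma). The correlations that chose both sets included the IL-6 arrays. A difference close to that of the member is therefore partly built in by the choice. The correlation of miR-130a-3p with miR-301a-3p was 0.742 over the 6 arrays. In these correlations control 3 is the highest point for both members, and 6 points from 1 slide describe these arrays only.

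The levels of the listed cell type markers are given beside these differences. The summed intensity of the 7 adipogenic miRNAs was 5185 to 5941 in controls and 4949 to 5111 with IL-6. All 7 had a difference below 0, 3 of them at an unadjusted p under 0.05 and 0 after adjustment (limma). Of all 299 tested miRNAs, 165 (55.2%) were below 0 and 68 (22.7%) had an unadjusted p under 0.05 (limma). The 3 mesenchymal miRNAs, miR-199a-3p, miR-214-3p and miR-145a-5p, summed to 3179 to 3926 in controls and 3346 to 3828 with IL-6. Bright miRNAs made up most of both sums. In controls miR-199a-3p averaged 3060 in the mesenchymal sum, and miR-103-3p averaged 2127 and miR-107-3p 1298 in the adipogenic sum. Within the mesenchymal sum miR-145a-5p was lower on both IL-6 arrays (152.5 and 149.8) than on every control (165.0 to 187.9). The same was seen for 65 of the 299 tested miRNAs (21.7%). The log2 difference of miR-145a-5p was -0.18 (adjusted p = 0.233, limma). Of 7 epithelial miRNAs, 1 was above background, miR-205-5p, with a difference of 0.09. In bulk RNA, fewer cells of a type and less miRNA per cell cannot be told apart, and the part of adipogenic cell share in the miR-301a-3p values was not tested.

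**Figure D5:**
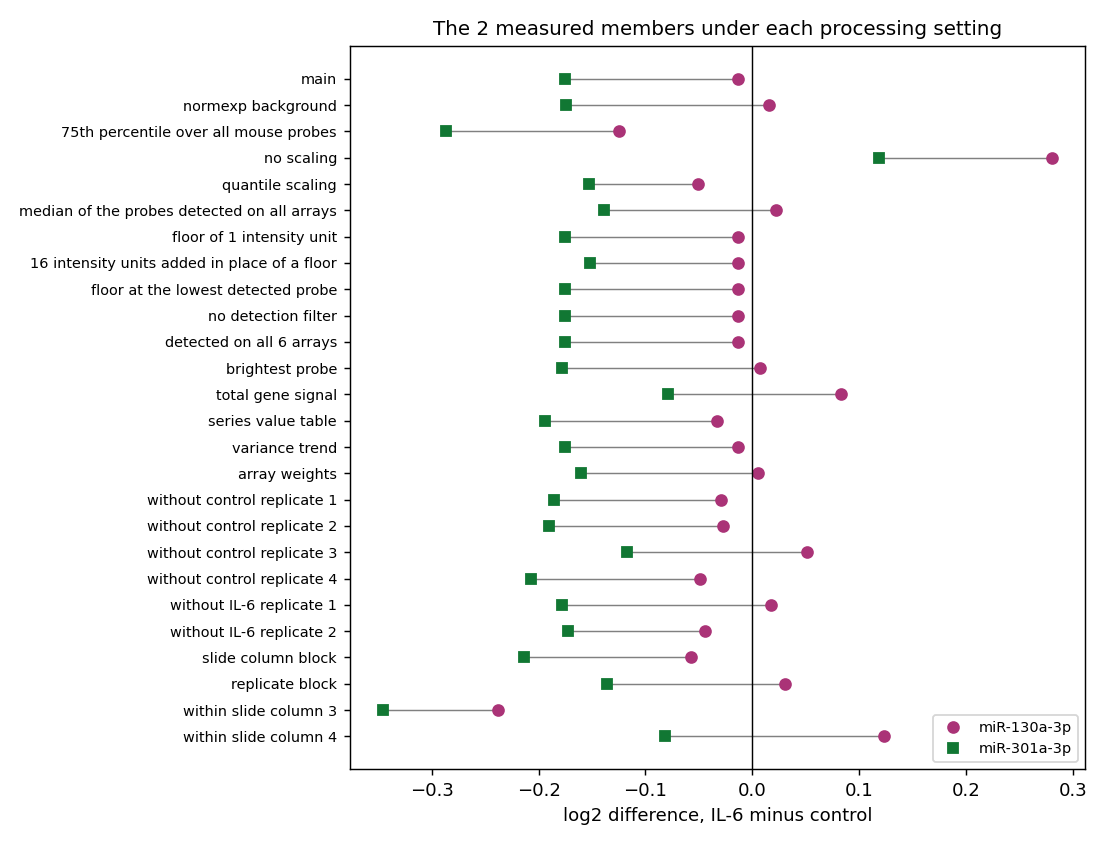
Log2 difference, IL-6 minus control (horizontal axis), of miR-130a-3p (purple circles) and miR-301a-3p (green squares) under the reported processing (top) and 25 alternative settings, with a grey line joining the 2 values of a setting. miR-130a-3p falls on either side of 0 (-0.24 to 0.28), and miR-301a-3p is below 0 except with no scaling (0.12); without scaling the median of all tested miRNAs is itself 0.27.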

How the data were processed

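Each array's title gave its group and replicate number. The RNA, labelled with Cy3 alone, was put on Agilent arrays of mouse miRNAs, per the labels' protocols. Agilent Feature Extraction 10.10.1.1 did the reading of the spots, per the file headers. The deposited intensity values are background-subtracted with spatial detrending and without surrogates, per the file headers, which leaves some dim spots negative. Flags deposited with them mark spots above background, uneven spots and outliers. The deposited series table equalled the software's total probe intensity (largest difference 0), is linear and uncentred, and has column medians between 0.0727 and 0.117. Whether the authors normalized it later is unknown here.

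Of 49880 mouse spots per array (3105 probes), uneven and outlier spots were dropped, none was saturated, and spots were averaged per probe. A probe was detected where at least 0.5 of its spots were above background. Arrays were scaled on the 75th percentile of the 502 probes detected on all arrays, probes averaged, values floored at 6.25 and log2 taken. The 299 miRNAs detected on all 4 control or both IL-6 arrays were tested with limma 3.58.1 in R 4.3.3. The fit used lmFit and eBayes with no covariates, two-sided, and a threshold of 0.05 after Benjamini-Hochberg adjustment. Only this fit and its adjustment were tested on simulated log2 values. Spot averaging, scaling, the floor and the detection filter were not. The number of arrays limits the precision. The floor was first set at the lowest detected probe and then, with results seen, at the lowest detected miRNA; the differences of the members are the same with both. The members and lists were chosen with earlier results of these data known. Named are the members, their 5p arms, the listed seed relatives, the Pparg list, the marker lists and, for each measured member, the 3 most correlated miRNAs; miR-6341 and miR-6389 were added by sequence. The endothelial marker of the lists and 2 of 6 blood markers are not analysed here. Control and IL-6 replicates share the numbers 1 and 2, but nothing in the labels pairs them.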

Additional observations from a re-analysis of the deposited data

Results flagged for a closer look

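Among the 4 control arrays, 2 marker miRNAs had 1 array far from the others by Dixon's test at the 95% level, which by chance marks about 1 in 20 groups. miR-145a-5p had a log2 intensity of 7.55 on control 1 against 7.37 to 7.38 on the other controls. miR-199a-3p had a log2 intensity of 11.35 on control 4 against 11.63 to 11.68 on the other controls. No member of the miR-130 and miR-301 family met this criterion.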

How the results depend on the processing

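miR-301a-3p stayed below 0 in 24 of 25 alternative settings and passed the adjusted threshold in none of the 23 that give an adjusted p (0.150 to 0.771); leaving out 1 array at a time gave -0.21 to -0.12. Without scaling it was 0.12, where the median of all miRNAs moved to 0.27, so that relative to this median it was -0.15. miR-130a-3p kept its sign in 15 of 25 settings. It turned with normexp background (0.0157), no scaling (0.28), scaling on the median of the detected probes (0.0222), the brightest probe (0.0067), the total gene signal (0.0825), array weights (0.0055), the replicate block (0.0301) and within slide column 4 (0.12), and leaving out 1 array gave -0.0489 to 0.0507, with a turn without control 3 (0.0507) and without IL-6 array 1 (0.02). Relative to the median of all miRNAs it was 0.0023 as reported and 0.0125 with no scaling. It was 0.0101 with median scaling and 0.0125 with the total gene signal, so relative to the other miRNAs its sign was the same there. In other settings it fell below that median, such as -0.0025 with 16 units added, -0.0417 with the slide column block and -0.204 within slide column 3. Its sign relative to the median was therefore not stable either. The adjusted p of miR-130a-3p was 0.503 to 1.

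With the replicate number as a block, miR-301a-3p was -0.14 and 0 miRNAs passed. Only 2 numbers are shared, and same-numbered arrays correlated at 0.0582 and -0.338 in their deviations from the group means. The deviations of the 2 IL-6 arrays mirror each other, so these correlations are not independent. They cannot decide whether the numbers pair the arrays.

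The difference between miR-130a-3p and miR-301a-3p was 0.19 with normexp, 0.10 with quantile scaling, 0.11 within slide column 3, 0.20 within column 4, and 0.13 to 0.19 leaving out 1 array at a time. Settings that only rescale an array cannot move it.

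The number of miRNAs past the threshold (1) moved with nearly every choice, and neither member was among them in any setting. It was 4 with normexp, 26 with no scaling, 7 with quantile scaling, 6 with a floor of 1 unit, 15 with 16 units added instead of a floor, 12 with the brightest probe, 3 with the total gene signal and 29 with array weights. It was 0 with the floor at the lowest detected probe, which was the floor first set. The reported floor was chosen in its place after results were seen. The number was also 0 with no detection filter, detection on all 6 arrays, the series table, the slide column block and the replicate block. Leaving out 1 array gave 0 to 24, namely 24 without control 4 and 5 without control 2. The contrast of the 2 members and its settings were also chosen after seeing the data. Scaling on all mouse probes moved the median of all miRNAs to -0.13. The cause of these changes was not tested. Signal over background limits what can be said of miR-130b-3p and miR-301b-3p to a level under the floor.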
